A study of Homo sapiens with 12 samples.

Results

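The aminoacyl-tRNA synthetases form the enzyme family that joins each amino acid to its transfer RNA. Of 35 family genes listed by symbol, 19 for the cytosol and 16 for mitochondria, 34 were measured here with at least 1 named probe, out of 10686 genes measured in all. A gene counted as measured if 1 of its probes was detected on 3 or more of the 12 arrays, with 0.01 as the limit of the detection p-value, and the brightest such probe represented it. Symbols ending in 2 were taken as mitochondrial, which left 18 measured cytosolic genes and 16 measured mitochondrial genes. CARS1, for cysteine, was not analysed here because no probe carried its name. The genes were U87 transcripts, from an established human glioma line, read on Illumina bead arrays in 4 groups of 3 arrays. Cells carried siRNA against BCL3 and had received temozolomide (TMZ), an alkylating drug, at 100 µM for 24 h (below, knockdown TMZ), or carried control siRNA with the same TMZ dose (control TMZ). The other groups carried BCL3 siRNA with DMSO (knockdown DMSO) or control siRNA with DMSO (control DMSO). Whether the replicates of a group were separate cultures is not given in the labels, and the p-values therefore cover the spread among these arrays, which could be technical only.

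Charging of transfer RNA supplies every ribosome with amino acids, and the cytosol and the mitochondrial matrix each have their own set of charging enzymes, all encoded in the nucleus. Several cytosolic synthetases sit together on scaffold proteins in the multi-synthetase complex, and others work as free dimers or monomers. GARS1 and KARS1 each encode both a cytosolic and a mitochondrial form. Many cytosolic synthetase genes are known targets of ATF4, the transcription factor of the amino acid response, which binds a composite site called CARE.

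BCL3, the transcript targeted by the siRNA, read 6.57, 6.52 and 6.54 in knockdown TMZ on the normalized log2 intensity scale, against 7.26, 7.28 and 7.36 in control TMZ. It read 6.41, 6.28 and 6.46 in knockdown DMSO, against 7.47, 7.39 and 7.25 in control DMSO. Mean raw intensity per array was 241.8 to 283.0 in knockdown TMZ, against 260.7 to 263.5 in control TMZ, and 229.6 to 258.0 in knockdown DMSO, against 265.9 to 317.5 in control DMSO, so that the DMSO groups did not overlap. Between 16381 and 17839 of 47320 probes were detected on an array. The arrays' correlations within a group ran from 0.9954 to 0.9971, and no array stood apart. Of 12 glial and mesenchymal markers 9 passed detection, among them VIM, CD44 and NES, while GFAP and S100B, which mark astrocytes, did not. Passing the same filter were 4 of 12 neuron and oligodendrocyte markers, 4 of 10 leukocyte markers and 1 of 8 epithelial markers. The mean normalized log2 intensity of the 4 leukocyte markers was 7.02 to 7.17 in knockdown TMZ, against 7.09 to 7.25 in control TMZ, and 6.93 to 7.04 in knockdown DMSO, against 7.19 to 7.24 in control DMSO. That of the 4 neuron and oligodendrocyte markers was 6.68 to 6.88 in knockdown TMZ, against 7.04 to 7.19 in control TMZ, and 6.71 to 6.83 in knockdown DMSO, against 7.01 to 7.13 in control DMSO. At an adjusted p under 0.05 (limma, over all genes), CSF1R fell with BCL3 siRNA under both treatments and CD68 under DMSO, 1 and 2 of the 4 leukocyte markers. SNAP25, TUBB3 and MAP2 fell under both treatments and OLIG2 under TMZ, and 0 of these 8 markers rose. Of the 9 glial and mesenchymal markers 1 rose and 3 fell under DMSO, and 2 rose and 3 fell under TMZ. Of all genes 20.7% rose and 20.1% fell under DMSO, and 18.6% rose and 20.2% fell under TMZ. EPCAM, the epithelial marker, fell under TMZ by 0.52. The part of these markers in the synthetase results was not tested.

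The choice of members rested on detection, and every representing probe was detected on 12 of 12 arrays. Among the 39 probes named for these genes 36 passed the filter. The passing probe nearest to the threshold, a second IARS1 probe, was detected on 7 arrays, and the nearest that did not pass, a second FARSB probe, on 2 arrays. The second probes of MARS2 and VARS1 were detected on 0 arrays. Normalized log2 intensity spanned 1.22 over the 12 arrays for AARS2 and 1.01 for YARS1, the widest ranges among the 34 genes. At the narrow end, FARS2 and QARS1 each spanned 0.24.

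With BCL3 siRNA the family split into genes that rose and genes that fell. Under DMSO, comparing knockdown DMSO with control DMSO, 6 of 34 genes rose and 6 fell at an adjusted p under 0.05 (limma, Benjamini-Hochberg over all genes). Of all genes tested 40.8% passed in that comparison, 20.7% as rises and 20.1% as falls. Under TMZ, comparing knockdown TMZ with control TMZ, 5 genes rose and 6 fell, where 38.8% of all genes passed, 18.6% as rises and 20.2% as falls. The synthetases' shares, 35.3% under DMSO and 32.4% under TMZ, were thus near the background, and these counts do not set the family apart. Their median log2 fold change was 0.08 under DMSO, where that of all genes was 0.01, and 0.02 under TMZ, where that of all genes was -0.00. With 1 array left out the DMSO median ran from 0.05 (without knockdown DMSO replicate 3) to 0.12 (without control DMSO replicate 3). The TMZ median then ran from 0.01 (without knockdown TMZ replicate 3) to 0.03 (without control TMZ replicate 1). With each array's mean raw intensity as a covariate the DMSO median was 0.00, against 0.01 for all genes. The calls over all genes then numbered 2410 under DMSO, against 4362 as reported, while 5 synthetases rose and 6 fell. The groups did not overlap for 18 genes under DMSO and 17 under TMZ, where 50% and 49.9% of all genes did not. Median scaling over all probes, which moved the median of all genes by -0.26 under DMSO, left 0 rises and 13 falls there. Rises were then 4.88% of all calls over all genes, against 50.7% as reported. Scaling on the median of detected probes gave 11 rises, and rises were 65.1% of all calls. Under TMZ the share of rises was 48.0% as reported, 35.0% with median scaling over all probes and 59.2% over detected probes. Relative to the median of all genes under each of these scalings, every called synthetase kept its direction.

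**Figure D1:**
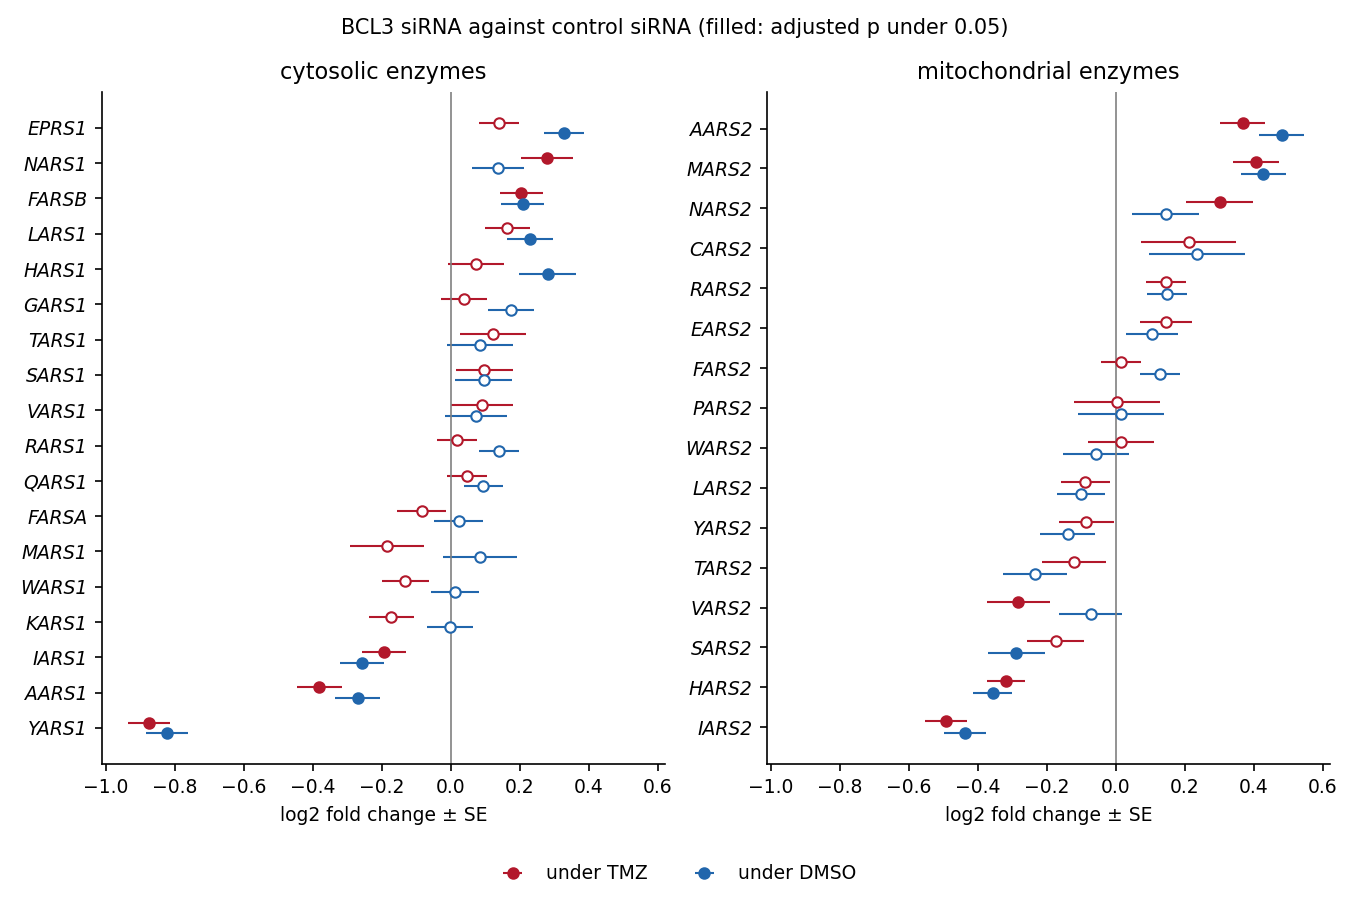
Log2 fold change (horizontal axis) of BCL3 siRNA against control siRNA for each measured synthetase gene (vertical axis), cytosolic on the left and mitochondrial on the right. Points are limma estimates with standard errors under TMZ (red, upper) and DMSO (blue, lower), filled where the adjusted p was under 0.05. YARS1 lies apart at -0.88 under TMZ and -0.82 under DMSO, and AARS1 and AARS2 lie on opposite sides of 0.

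YARS1, the cytosolic tyrosine enzyme and a member outside the complex, fell most of all synthetases under both treatments. Its normalized log2 intensity was 9.71, 9.72 and 9.78 in knockdown TMZ, against 10.56, 10.66 and 10.62 in control TMZ. In knockdown DMSO it was 9.65, 9.78 and 9.82, against 10.54, 10.55 and 10.65 in control DMSO. Every knockdown array was below every control array by a gap several times the spread within groups. The log2 fold change was -0.88 under TMZ (SE 0.06, adjusted p = 3.25e-07, limma) and -0.82 under DMSO (SE 0.06, adjusted p = 5.19e-07), or 1.83-fold and 1.77-fold lower with BCL3 siRNA. In RNA from whole cultures, fewer cells with a transcript and less of it per cell cannot be told apart. Among all 10686 genes it ranked 116 by size of fall under TMZ and 165 under DMSO. The mitochondrial tyrosine enzyme, YARS2, had log2 fold changes of -0.09 under TMZ and -0.14 under DMSO, neither past the threshold.

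AARS1, the cytosolic alanine enzyme, also fell under both treatments. It read 10.23, 10.34 and 10.45 in knockdown TMZ, against 10.75, 10.75 and 10.66 in control TMZ. Under DMSO the readings were 10.34, 10.30 and 10.39 in knockdown DMSO, against 10.56, 10.60 and 10.68 in control DMSO. The groups did not overlap under either treatment. Its log2 fold change was -0.38 under TMZ (SE 0.07, adjusted p = 0.000543, limma) and -0.27 under DMSO (SE 0.07, adjusted p = 0.0055). The DMSO call was lost with each array's mean raw intensity as a covariate (-0.23) and with scaling on the median of detected probes (-0.17).

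Of the complex members, IARS1, which charges isoleucine, fell under both treatments. Its levels were 10.25, 10.17 and 10.20 in knockdown TMZ, against 10.38, 10.35 and 10.47 in control TMZ. They were 10.06, 10.18 and 10.10 in knockdown DMSO, against 10.42, 10.27 and 10.43 in control DMSO. The groups did not overlap, but under TMZ the gap was small. IARS1 had log2 fold changes of -0.20 under TMZ (SE 0.06, adjusted p = 0.0275, limma) and -0.26 under DMSO (SE 0.06, adjusted p = 0.00587). The TMZ call was lost without knockdown TMZ replicate 2 (-0.18) or 3 (-0.19) and without control TMZ replicate 1 (-0.21) or 3 (-0.16). With both IARS1 probes averaged the TMZ value was -0.09. The second, dim probe was detected on 2 of 3 knockdown TMZ arrays and 2 of 3 control TMZ arrays, and its own log2 fold change under TMZ was 0.02.

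EPRS1 and LARS1, also in the complex, rose under DMSO. EPRS1, the fused glutamate and proline enzyme, read 10.53, 10.48 and 10.62 in knockdown DMSO, against 10.21, 10.15 and 10.29 in control DMSO. The values did not overlap, and the log2 fold change was 0.33 (SE 0.06, adjusted p = 0.000604, limma). With median scaling over all probes the value was 0.07 and the call was lost. Under TMZ EPRS1 read 10.47, 10.46 and 10.46 in knockdown TMZ, against 10.35, 10.31 and 10.31 in control TMZ. Its log2 fold change there was 0.14 (adjusted p = 0.0714, limma), which missed the threshold without overlap. LARS1, the leucine enzyme, which also reports leucine to mTORC1, read 9.11, 8.92 and 9.16 in knockdown DMSO, against 8.84, 8.82 and 8.84 in control DMSO. The knockdown DMSO arrays were all higher but more spread, and the log2 fold change was 0.23 (SE 0.07, adjusted p = 0.0144, limma). That call was lost without knockdown DMSO replicate 3 (0.18), and the value turned to -0.08 with median scaling over all probes. Under TMZ the LARS1 log2 fold change was 0.16 (adjusted p = 0.0678, limma). The other complex members, MARS1, QARS1, RARS1 and KARS1 (for methionine, glutamine, arginine and lysine), did not pass in either knockdown comparison. Their log2 fold changes ran from -0.00 (KARS1) to 0.14 (RARS1) under DMSO and from -0.19 (MARS1) to 0.05 (QARS1) under TMZ.

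Outside the complex 3 further cytosolic genes rose under at least 1 treatment. FARSB, the beta subunit of phenylalanine synthetase, read 13.11, 12.92 and 12.99 in knockdown TMZ, against 12.81, 12.83 and 12.78 in control TMZ. Its readings were 12.93, 12.83 and 12.92 in knockdown DMSO, against 12.62, 12.74 and 12.69 in control DMSO. All knockdown arrays were higher, with log2 fold changes of 0.20 under TMZ (SE 0.06, adjusted p = 0.0212, limma) and 0.21 under DMSO (SE 0.06, adjusted p = 0.0181). Both FARSB calls turned on single arrays and on the processing. The TMZ call was lost without knockdown TMZ replicate 1 (0.15) or control TMZ replicate 3 (0.19), and with median scaling over all probes (0.30). The DMSO call was lost without knockdown DMSO replicate 1 (0.19) or 3 (0.20) or control DMSO replicate 1 (0.18). It was also lost with cyclic loess normalization (0.17), with each array's mean raw intensity as a covariate (0.19) and with median scaling over all probes (0.02). FARSA, the alpha subunit of the same enzyme, had log2 fold changes of -0.08 under TMZ and 0.02 under DMSO and did not pass.

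HARS1, the cytosolic histidine enzyme, rose under DMSO. It read 10.31, 10.37 and 10.39 in knockdown DMSO, against 10.02, 10.00 and 10.21 in control DMSO. The groups did not overlap, and the difference was 0.28 on the log2 scale (SE 0.08, adjusted p = 0.0155, limma). This call was lost without control DMSO replicate 1 (0.25) or 2 (0.24), and with median scaling over all probes (0.03). With each array's mean raw intensity as a covariate the value was 0.15. Under TMZ the groups overlapped, with 10.25, 10.06 and 10.34 in knockdown TMZ, against 10.20, 10.19 and 10.04 in control TMZ. NARS1, the asparagine enzyme, rose under TMZ, where it read 10.77, 10.81 and 10.96 in knockdown TMZ, against 10.65, 10.48 and 10.57 in control TMZ. Its groups did not overlap under TMZ, where the log2 fold change was 0.28 (SE 0.07, adjusted p = 0.0105, limma). Under DMSO NARS1 read 10.60, 10.67 and 10.78 in knockdown DMSO, against 10.50, 10.50 and 10.64 in control DMSO, with a log2 fold change of 0.14 (adjusted p = 0.164, limma). GARS1, SARS1, TARS1, VARS1 and WARS1, for glycine, serine, threonine, valine and tryptophan, passed in neither comparison, with log2 fold changes between -0.13 and 0.18.

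The CARE sequence was searched in the promoter windows of these genes because many cytosolic synthetase genes are known ATF4 targets. Promoter windows of RefSeq (GRCh38.p14) were on hand for 30 of the 35 genes, with none for AARS2, YARS1, VARS1, LARS1 and VARS2. The motif TGATGCAA, read on both strands, was in the window of 6 of 16 cytosolic genes (AARS1, CARS1, IARS1, MARS1, NARS1 and TARS1) and of 0 of 14 mitochondrial genes. It was in a window of 1.08% of all 27305 genes. The looser TGATGNAA, which contains it, was found for 7 of 16 cytosolic genes, GARS1 added, for 1 of 14 mitochondrial genes, YARS2, and for 4.46% of all genes. The measured genes with TGATGCAA are shown with the motif, or its reverse complement, in capitals. Coordinates are those of the 30 bases shown. Distances are those of the first capital base from the annotated start, so that a stretch can run across the start. AARS1 lies at chr16:70289675-70289704 (minus strand), 187 bases before the annotated start. IARS1 is at chr9:92293692-92293721 (minus strand), 13 bases before it, and MARS1 at chr12:57488053-57488082 (plus strand), 4 bases before it. NARS1 is at chr18:57621804-57621833 (minus strand), 14 bases after the start, and TARS1 at chr5:33440956-33440985 (plus strand), 2 bases after it.
AARS1: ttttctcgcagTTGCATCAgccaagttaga
IARS1: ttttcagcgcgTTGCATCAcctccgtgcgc
MARS1: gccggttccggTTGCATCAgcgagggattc
NARS1: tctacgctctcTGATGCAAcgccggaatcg
TARS1: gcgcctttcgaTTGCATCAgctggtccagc
With BCL3 siRNA, AARS1 and IARS1 of these 5 genes fell under both treatments and NARS1 rose under TMZ. MARS1 had log2 fold changes of -0.19 under TMZ and 0.08 under DMSO, and TARS1 had 0.12 under TMZ and 0.08 under DMSO, none of which passed. A match of letters is a description of the window and no evidence of binding.

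Among the mitochondrial enzymes IARS2 and HARS2 fell under both treatments. IARS2, for isoleucine, read 9.77, 9.69 and 9.81 in knockdown TMZ, against 10.26, 10.22 and 10.26 in control TMZ. It read 9.72, 9.90 and 9.82 in knockdown DMSO, against 10.27, 10.25 and 10.23 in control DMSO. The control arrays were tightly grouped, and all knockdown arrays were lower. Its log2 fold change was -0.49 under TMZ (SE 0.06, adjusted p = 3.77e-05, limma) and -0.44 under DMSO (SE 0.06, adjusted p = 9.44e-05). HARS2, for histidine, read 9.14, 9.03 and 9.17 in knockdown TMZ, against 9.47, 9.39 and 9.43 in control TMZ. Its readings were 9.03, 9.04 and 9.08 in knockdown DMSO, against 9.41, 9.42 and 9.38 in control DMSO. No knockdown array reached a control array, and the log2 fold change was -0.32 under TMZ (SE 0.06, adjusted p = 0.000611, limma) and -0.36 under DMSO (SE 0.06, adjusted p = 0.000256).

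SARS2, for serine, fell under DMSO and VARS2, for valine, fell under TMZ. SARS2 read 7.80, 7.86 and 7.75 in knockdown DMSO, against 7.93, 8.14 and 8.22 in control DMSO. All knockdown values were lower, with a difference of -0.29 on the log2 scale (SE 0.08, adjusted p = 0.0144, limma). Under TMZ it read 8.04, 7.89 and 8.03 in knockdown TMZ, against 8.24, 8.20 and 8.03 in control TMZ, with overlap (adjusted p = 0.118, limma). VARS2 read 7.12, 6.96 and 7.13 in knockdown TMZ, against 7.48, 7.27 and 7.32 in control TMZ. The difference was -0.28 on the log2 scale (SE 0.09, adjusted p = 0.0267, limma), without overlap. Its DMSO readings overlapped, at 7.09, 7.17 and 7.07 in knockdown DMSO, against 7.29, 6.97 and 7.30 in control DMSO (adjusted p = 0.555, limma). Both calls turned on single arrays. The SARS2 call was lost without control DMSO replicate 3 (-0.23), and the VARS2 call without knockdown TMZ replicate 2 (-0.23) or control TMZ replicate 1 (-0.22).

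MARS2 and AARS2 rose under both treatments, and NARS2 under TMZ. MARS2, the mitochondrial methionine enzyme, read 7.33, 7.26 and 7.36 in knockdown TMZ, against 6.89, 6.96 and 6.89 in control TMZ. It read 7.56, 7.48 and 7.36 in knockdown DMSO, against 7.10, 6.97 and 7.06 in control DMSO. All knockdown arrays were above all control arrays of the same treatment, with log2 fold changes of 0.41 under TMZ (SE 0.07, adjusted p = 0.000329, limma) and 0.43 under DMSO (SE 0.07, adjusted p = 0.000223). The MARS2 call under DMSO was lost with median scaling over all probes (0.08). NARS2, for asparagine, read 6.51, 6.63 and 6.88 in knockdown TMZ, against 6.56, 6.20 and 6.36 in control TMZ. These groups overlapped, and the log2 fold change was 0.30 (SE 0.10, adjusted p = 0.0258, limma). The call was lost without knockdown TMZ replicate 3 (0.20) and without control TMZ replicate 2 (0.22) or 3 (0.29), and in a fit of the compared arrays alone. Under DMSO NARS2 read 6.71, 6.65 and 6.61 in knockdown DMSO, against 6.49, 6.52 and 6.52 in control DMSO, with no overlap and a log2 fold change of 0.15 (adjusted p = 0.253, limma). AARS2, the mitochondrial alanine enzyme, moved with both the siRNA and the drug, and its values follow with TMZ. CARS2, EARS2, FARS2, LARS2, PARS2, RARS2, TARS2, WARS2 and YARS2 passed in neither knockdown comparison, with log2 fold changes from -0.23 (TARS2) to 0.24 (CARS2) under DMSO and from -0.12 (TARS2) to 0.21 (CARS2) under TMZ.

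By compartment, 4 of 18 cytosolic genes rose and 3 fell under DMSO (38.9%), and 2 rose and 3 fell under TMZ (27.8%). Of the 16 mitochondrial genes, 2 rose and 3 fell under DMSO (31.2%), and 3 rose and 3 fell under TMZ (37.5%). All 4 shares were below the 40.8% and 38.8% of all genes, and no difference between compartments was tested. The knockdown comparisons share no arrays. Of the 34 genes 3 rose in both (FARSB, MARS2 and AARS2), 5 fell in both (YARS1, AARS1, IARS1, IARS2 and HARS2) and 0 moved in opposite directions. Called the same way in both were thus 23.5% of the synthetases, where 29.7% of all genes were. Called under DMSO only were EPRS1, HARS1, LARS1 and SARS2, and under TMZ only NARS1, NARS2 and VARS2. No synthetase had an interaction of siRNA with TMZ past the threshold, so those differences between treatments were not established. The 2 log2 fold changes had the same sign for 30 of 34 synthetases (88.2%), where 82.2% of all genes had.

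**Figure D2:**
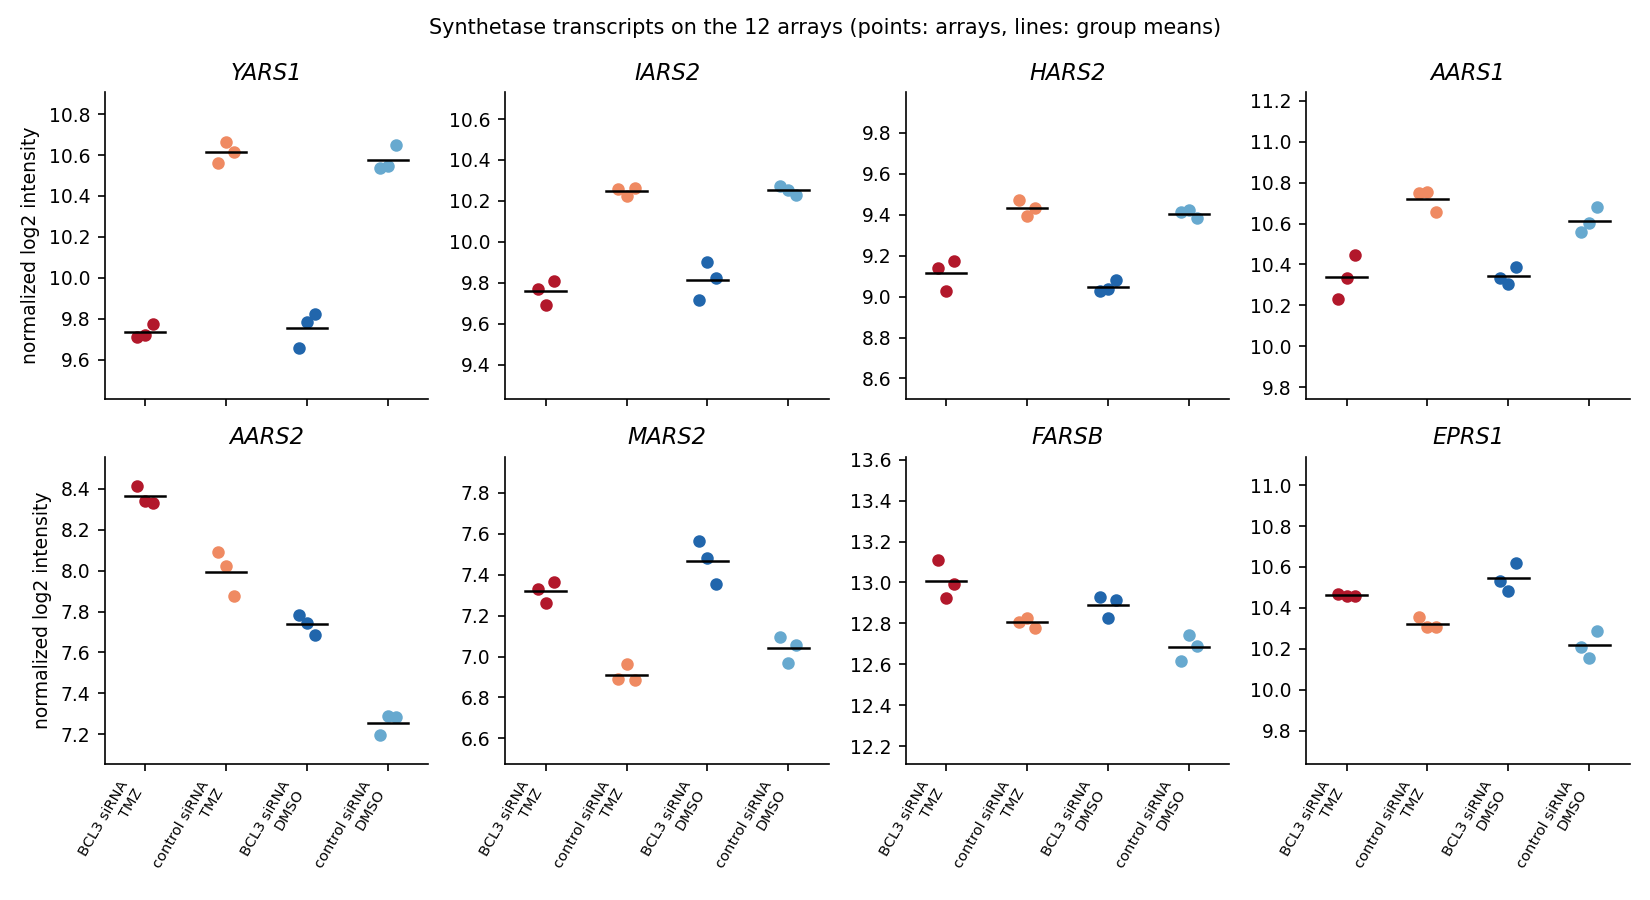
Normalized log2 intensity (vertical axis, same span in each panel) of 8 synthetase genes on the 12 arrays, grouped by siRNA and treatment along the horizontal axis. Points are arrays and lines group means. YARS1, IARS2, HARS2 and AARS1 are lower with BCL3 siRNA, and AARS2 averages 8.36 in knockdown TMZ and 7.26 in control DMSO, with the other groups between them.

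Enzymes for the same amino acid in the 2 compartments were set side by side. Of all genes 40.8% were called under DMSO and 38.8% under TMZ. Whether the pairs moved together more or less often than other genes was not tested. Counted were 15 pairs of a cytosolic and a mitochondrial gene, FARSA and FARSB both pairing with FARS2. EPRS1 was paired with EARS2 for glutamate only. Its proline counterpart PARS2, at 0.014 under DMSO and 0.004 under TMZ and not called, was left out of these counts. Under DMSO both genes passed in 3 pairs. IARS1 and IARS2 fell together, AARS1 fell where AARS2 rose, and HARS1 rose where HARS2 fell. A single gene of the pair passed in 6 pairs, and neither did in the remaining 6. Under TMZ both passed in 3 pairs, with IARS1 and IARS2 fallen, NARS1 and NARS2 risen, and AARS1 fallen where AARS2 rose. Here 5 pairs had a single called gene and 7 had none.

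HARS1 and HARS2 are neighbours that are read in opposite directions from 1 short stretch of chromosome 5. Their annotated starts lie 85 bases apart (RefSeq, GRCh38.p14), HARS1 on the minus strand and HARS2 on the plus strand. Such a layout is not particular to this pair. Of 29 measured members with a promoter window, 10 had an opposite-strand start upstream within 1000 bases. Closer than the HARS starts were those of FARS2 and LYRM4 (57 bases) and of TARS1 and TARS1-DT (62 bases). The 84 bases between the starts, chr5:140691371-140691454 on the plus strand, are shown because this shared stretch is upstream of both genes. Capitals mark its 9 CpG dinucleotides, and its GC content was 59.5%.
HARS1 and HARS2: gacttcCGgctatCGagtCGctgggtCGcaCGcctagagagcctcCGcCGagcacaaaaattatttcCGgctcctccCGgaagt
The difference between the probes of HARS1 and HARS2 within an array was used only to compare groups, since levels of different probes are not comparable. HARS1 minus HARS2 was 1.10 ± 0.07 in knockdown TMZ and 0.71 ± 0.10 in control TMZ (SD, n = 3 each). It was 1.31 ± 0.03 in knockdown DMSO and 0.67 ± 0.14 in control DMSO (SD, n = 3 each). The groups did not overlap under TMZ (1.03 to 1.17, against 0.61 to 0.80) or under DMSO (1.28 to 1.33, against 0.58 to 0.83). The difference of the means was 0.39 log2 units under TMZ and 0.64 under DMSO. The exact permutation test, 2-sided, gave p = 0.1 for each, the smallest it can give with 3 arrays a group. Under DMSO that outcome was fixed beforehand, since HARS1 was higher and HARS2 lower without overlap, and the test adds nothing there. Under TMZ HARS2 was already lower without overlap, while HARS1 overlapped. A test that cannot go below 0.1 decides nothing there either.

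**Figure D3:**
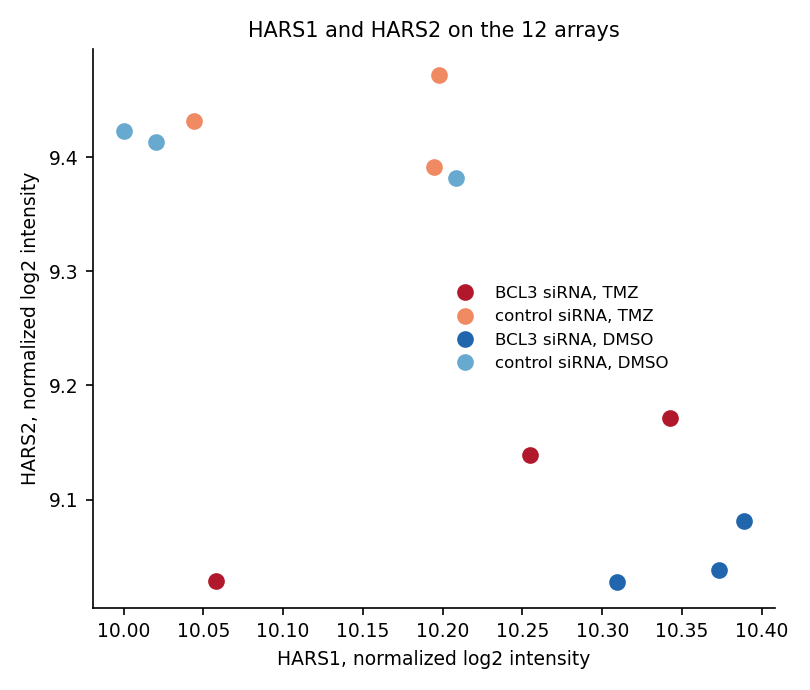
Normalized log2 intensity of HARS2 (vertical axis) against HARS1 (horizontal axis), 1 point for each of the 12 arrays, coloured by group. All 6 BCL3 siRNA arrays lie at or below 9.17 for HARS2, and all 6 control siRNA arrays at or above 9.38.

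TMZ, compared with DMSO, moved few synthetase transcripts, and AARS2 was the exception. It read 8.41, 8.34 and 8.33 in knockdown TMZ, against 7.78, 7.74 and 7.69 in knockdown DMSO, and 8.09, 8.02 and 7.87 in control TMZ, against 7.20, 7.29 and 7.28 in control DMSO. No value was shared between any pair of groups. It rose with TMZ by 0.63 with BCL3 siRNA (log2, SE 0.06, adjusted p = 0.00065, limma) and by 0.74 with control siRNA (SE 0.06, adjusted p = 0.000117). By size of rise it ranked 9 and 5 of all 10686 genes in those comparisons. It also rose with BCL3 siRNA, by 0.37 under TMZ (log2, SE 0.06, adjusted p = 0.000664, limma) and by 0.48 under DMSO (SE 0.06, adjusted p = 8.4e-05). That DMSO call was lost with median scaling over all probes (0.13). The TMZ effect differed by -0.11 between the siRNAs (95% interval -0.31 to 0.09, interaction adjusted p = 0.865, limma).

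AARS2 was the 1 synthetase of 34 called with BCL3 siRNA, where 1.06% of all genes were called, 0.599% as rises and 0.459% as falls. It was also the 1 called with control siRNA, where 0.861% of all genes were, 0.468% as rises and 0.393% as falls. The TMZ and DMSO arrays did not overlap for 5 of 34 synthetases with BCL3 siRNA, against 19.5% of all genes, and for 6 of 34 with control siRNA, against 22.8% of all genes. The other synthetases had log2 fold changes between -0.27 (KARS1) and 0.18 (SARS2) with BCL3 siRNA, and between -0.15 (WARS2) and 0.17 (MARS1) with control siRNA. Averaged over both siRNAs 2 of 34 passed, AARS2 with 0.68 (SE 0.05, adjusted p = 4.77e-06, limma) and KARS1, where 4.84% of all genes passed, 2.71% as rises and 2.12% as falls. All 6 TMZ arrays stood apart from all 6 DMSO arrays for 1 synthetase, AARS2, and for 1.26% of all genes. KARS1 read 8.26, 8.31 and 8.43 in knockdown TMZ, against 8.68, 8.53 and 8.60 in knockdown DMSO, and 8.54, 8.50 and 8.48 in control TMZ, against 8.70, 8.58 and 8.54 in control DMSO. The groups were apart with BCL3 siRNA and overlapped with control siRNA. Its averaged log2 fold change was -0.18 (SE 0.05, adjusted p = 0.0444, limma). That call was close to the threshold, and it was lost without any of 10 of the 12 arrays, with values from -0.16 to -0.20. Only leaving out control DMSO replicate 3 or knockdown TMZ replicate 3 kept it. FARSB (0.12), SARS2 (0.12) and MARS2 (-0.14) were next in size among the averaged values and did not pass.

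**Figure D4:**
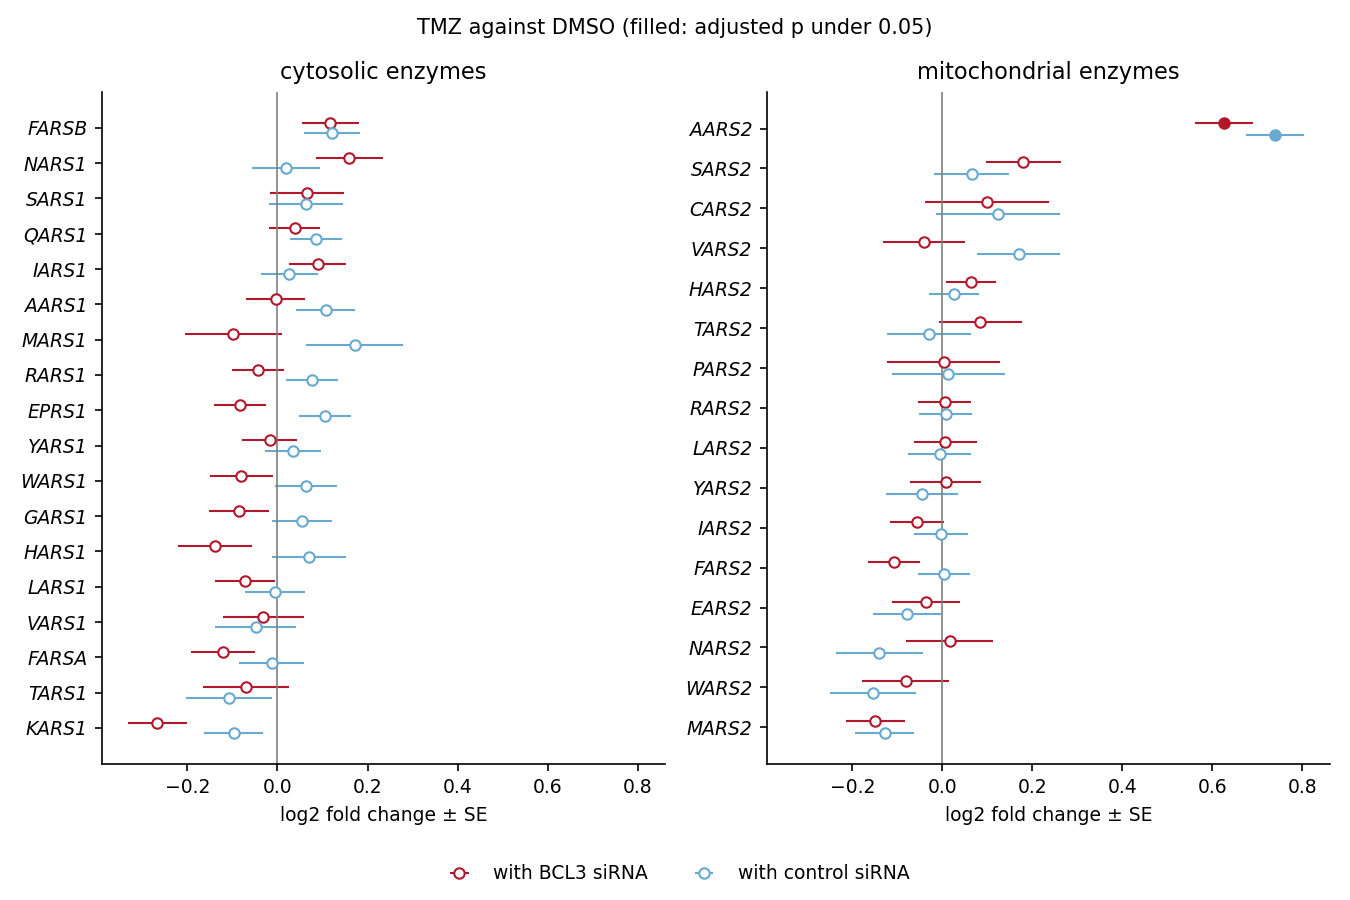
Log2 fold change (horizontal axis) of TMZ against DMSO for each measured synthetase gene (vertical axis), cytosolic on the left and mitochondrial on the right. Points are limma estimates with standard errors, with BCL3 siRNA in red and control siRNA in blue, filled where the adjusted p was under 0.05. AARS2 stands alone at 0.63 with BCL3 siRNA and 0.74 with control siRNA, and the open points lie between -0.27 and 0.18.

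The interaction, which asks whether the TMZ effect differed between BCL3 siRNA and control siRNA, passed for 0 of 34 synthetases and for 0% of all genes (limma, adjusted p under 0.05). At an unadjusted p under 0.05 it held 1 synthetase, EPRS1, with -0.19 (SE 0.08), and 718 genes in all. MARS1 had the largest estimate, -0.27, but with an SE of 0.15.

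A further list held 11 measured genes grouped with transfer RNA charging, not all of them charging enzymes. Of these 2 rose and 0 fell in each knockdown comparison, or 18.2%. Of all genes 38.8% were called under TMZ and 40.8% under DMSO. YRDC, which serves a threonyl-carbamoyl modification of transfer RNA and not its charging, rose by 0.87 under TMZ (SE 0.06) and 0.90 under DMSO (SE 0.06). GATB, a subunit of the mitochondrial amidotransferase that makes glutaminyl-tRNA, rose by 0.41 under TMZ (SE 0.06) and 0.50 under DMSO (SE 0.06). The scaffold of the complex could not be followed, since of AIMP1, AIMP2 and EEF1E1 only AIMP1 had a named probe and it did not pass detection. Of 44 genes of transfer RNA processing and modification 9 rose and 10 fell under TMZ (43.2%), and 12 rose and 10 fell under DMSO (50%). POP5, a subunit of the RNase P that trims transfer RNA, fell by 0.96 under TMZ and 0.99 under DMSO. DUS2, a dihydrouridine synthase, rose by 0.61 under TMZ and 0.56 under DMSO.

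The lists of genes that work beside the synthetases in translation held smaller shares of calls than the 38.8% of all genes under TMZ and 40.8% under DMSO. Of 57 mitochondrial ribosomal protein genes 9 rose and 6 fell under TMZ (26.3%), and 11 rose and 5 fell under DMSO (28.1%), with MRPL32 up by 0.37 under TMZ and 0.33 under DMSO and MRPL12 at -0.32 under TMZ and -0.26 under DMSO. Of 12 mitochondrial translation factors 3 rose and 0 fell in each comparison (25%), among them the initiation factor MTIF3, with 0.32 under TMZ and 0.20 under DMSO. Of 41 cytosolic translation factors 6 rose and 5 fell under TMZ (26.8%), and 7 rose and 6 fell under DMSO (31.7%). EIF4A1, the helicase of the cap-binding complex, fell by 0.82 under TMZ and 0.85 under DMSO.

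In the amino acid response and transport lists the shares of calls were somewhat above those of all genes, a difference that was not tested. Of 30 ATF4 and amino acid response genes 9 rose and 6 fell under TMZ (50%), and 10 rose and 4 fell under DMSO (46.7%). PSAT1, of serine synthesis, fell by 1.09 under TMZ and 0.94 under DMSO, and DDIT3 (CHOP) fell by 0.63 under TMZ and 0.59 under DMSO. ALDH18A1, of proline synthesis, rose by 0.64 under TMZ and 0.52 under DMSO, and DDIT4, an inhibitor of mTORC1, rose by 0.68 under TMZ and 0.54 under DMSO. Of 17 amino acid transporters 6 rose and 3 fell under TMZ (52.9%), and 6 rose and 2 fell under DMSO (47.1%). SLC36A1, a lysosomal and plasma membrane carrier, rose by 0.80 under TMZ and 0.74 under DMSO, and SLC38A9, which senses lysosomal arginine, rose by 0.37 under TMZ and 0.31 under DMSO. The median log2 fold change of the transporters was 0.11 under TMZ and 0.13 under DMSO, that of the response genes 0.05 and 0.06, beside -0.00 and 0.01 for all genes. With TMZ against DMSO and control siRNA, 1 response gene rose and 1 fell (6.67%), where 0.861% of all genes were called. With BCL3 siRNA 1 response gene rose (3.33%) and 1 transporter fell (5.88%), against 1.06% of all genes. Averaged over both siRNAs 3 response genes rose and 4 fell (23.3%), and 2 transporters fell (11.8%), against 4.84% of all genes. These differences were not tested. DDIT4 had a log2 fold change of -0.44 and NUPR1 of 0.44 with control siRNA (SE 0.08 each), and JDP2 had 0.53 (SE 0.11) with BCL3 siRNA, all past the threshold.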

How the data were processed

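RNA was amplified and biotin-labelled for Illumina arrays, per the labels' protocols. The deposited probe intensity values were neither normalized nor background-subtracted, judged from the values, and the deposited detection p-values carried no sample names, so each was matched to the intensity column it fell with most strongly. The sources used here do not give the scanning software or how the authors' second table, used as an alternative, was normalized. Background correction and normalization used limma 3.58.1 under R 4.3.3 (neqc, offset 16, quantile, log2), and fold changes are on that offset scale, which understates changes of dim probes. The 10686 genes detected (p-value below 0.01 on 3 arrays or more) entered 1 group-means fit of all 12 arrays (lmFit and eBayes, 8 residual degrees of freedom). Tests were 2-sided, with Benjamini-Hochberg adjustment over these genes and a threshold of 0.05. Genes were named through the platform annotation and RefSeq. The number of arrays limits the precision. The members, the gene lists, the tests and the rule for naming genes (every member, BCL3, and up to 4 called genes with the lowest p in each other list) were chosen with earlier results of these data known. The steps were tested on simulated data.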

Additional observations from a re-analysis of the deposited data

How the results depend on the processing

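Over up to 28 alternatives, 12 of them leaving out 1 array, 12 of 27 called values kept direction and call. These were YARS1, IARS2, HARS2 and IARS1 under DMSO, YARS1, IARS2, AARS1, AARS2 and MARS2 under TMZ, and AARS2 in each TMZ comparison; the other 15 were lost at least once. Median scaling over all probes moved most values, giving 0 rises and 13 falls with BCL3 siRNA under DMSO and 2 rises under TMZ, -0.076 for LARS1 and -0.330 for FARSA under DMSO. It shifts all genes, by -0.26 under DMSO. Scaling over detected probes, chosen after seeing the data, gave 11 and 9 rises, and no background correction 8 rises under TMZ. With BCL3 siRNA, TMZ calls numbered 2, KARS1 added, with no background correction, maximum likelihood normexp, an offset of 50, or trend and robust moderation. The averaged TMZ calls numbered 1, KARS1 lost, with either median scaling, cyclic loess, no filter, detection p under 0.05 or the intensity covariate. Arrays left out in turn gave, with BCL3 siRNA, 5 to 7 rises and 5 to 7 falls under DMSO, 3 to 6 rises (3 without control TMZ replicate 3) and 4 to 7 falls under TMZ, 1 to 1 TMZ calls with each siRNA, 1 to 2 averaged and 0 to 0 interactions. Replicate numbers showed no clear pairing of the samples, though with 3 arrays a group this check cannot exclude one. Deviations of 18 same-numbered pairs correlated at -0.15 to 0.19, with 4 above 0.1, and 7 of 36 other pairs were above 0.1. The fit with replicate number as a block gave 1 averaged TMZ call, KARS1 lost, and changed no other count of calls by over 1.5 times. Except where the construction of a setting is named, the cause was not tested.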
